A study of Mus musculus with 19 samples.

Results

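The genes described here are 40 mouse genes of glucose uptake, glycolysis, lactate handling and glycogen metabolism, out of 35598 genes to which transcripts were assigned. They were taken as a named list. The level of each gene is the sum of the estimated counts of its transcripts, except that Pkm was also split into its alternative transcripts. All 40 were found in the files. The filter on low counts kept 39 of them for testing and left out Pygl, the liver glycogen phosphorylase, which had 0 to 8 counts in a library.

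The cells were primary myoblasts, the dividing precursors of muscle fibres, isolated from mouse hind-limb muscle and cultured. Libraries labelled wild type (WT) are the controls, and libraries labelled Glud1 deficient are called KO-labelled here. Both genotypes were sampled as myoblasts after 24 h in growth medium, as differentiated myotubes at 48 h and as fused myotubes at 72 h. There were 3, 3 and 4 WT libraries and 3, 2 and 4 KO-labelled libraries at these stages. The labels call the replicates biological but do not tie them to animals or cultures, so p-values measure the spread between these libraries, which may be technical. How Glud1 was made deficient and the strain and age of the mice are not given in the sources used here.

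Glycolysis splits glucose into pyruvate, and lactate dehydrogenase turns pyruvate into lactate, which monocarboxylate transporters carry across the cell membrane. Skeletal muscle also stores glucose as glycogen and breaks it down through glycogen phosphorylase when it contracts. Many steps have a form of the enzyme or transporter that is enriched in muscle and one or more relatives used by other tissues. The muscle forms are Hk2, Pfkm, Aldoa, Pgam2, Eno3, Ldha, Pygm, Slc2a4 and Slc16a3, which are called the muscle isoforms below, although Hk2, Aldoa and Ldha are used outside muscle too. Their 12 family counterparts are Hk1, Pfkl, Pfkp, Aldoc, Pgam1, Eno1, Eno2, Ldhb, Pygb, Pygl, Slc2a1 and Slc16a1. The other 19 genes stand outside these families.

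The libraries held 16168131 to 30742634 estimated counts. Glud1, which encodes the mitochondrial enzyme that converts glutamate to 2-oxoglutarate (chr14:34310727-34345265 of GRCm38, plus strand), overlapped between the labels at each stage. It was at 184 to 192 CPM in WT and 185 to 190.0 CPM in KO-labelled myoblasts, at 102 to 112 and 96.6 to 103 CPM in differentiated myotubes, and at 131 to 141 and 130.2 to 139 CPM in fused myotubes. CPM is the count scaled to a common library size with TMM, the trimmed mean of M-values. File names carry KO for both groups, plus a T in the KO-labelled one, so directions given for KO-labelled cells rest on the sample labels alone. The summed level of 8 skeletal muscle markers rose from 2186 to 2455 CPM in WT myoblasts to 35917 to 41105 CPM in WT differentiated and 35612 to 38690 CPM in WT fused myotubes. Summed proliferation markers went from 863 to 903 CPM in WT myoblasts to 16.9 to 20.2 CPM in fused myotubes, and the part of either list in the changes between stages was not tested. Fibroblast, endothelial and adipocyte marker lists summed to at most 3.40, 1.08 and 0.18 CPM in a library, with the fibroblast marker Dpt at 0 counts and Lum at 0 or 1. The 5 macrophage and leukocyte markers summed to 1.51 to 1.91 CPM in WT myoblasts, 15.5 to 18.5 CPM in differentiated and 8.49 to 10.3 CPM in fused myotubes. Nearly all of the later sums was Itgam, at 0.211 to 0.234, 14.9 to 17.3 and 8.22 to 9.96 CPM, and the part of this list in the results was not tested. In bulk samples, fewer cells of a type and less RNA per cell cannot be told apart.

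In WT cells every muscle isoform rose from myoblasts to fused myotubes, while their counterparts went both ways. Tests were edgeR's quasi-likelihood tests on 15123 genes, and a call means a Benjamini-Hochberg adjusted p under 0.05. The SE of a log2 fold change was worked back from the test, as its absolute value over the square root of the F statistic. Such an SE can be too small for large changes from few counts, and is left out of the text there. The 9 muscle isoforms had a median log2 fold change of 4.74. Of the 11 tested counterparts, 4 rose and 6 fell, with a median of -0.34. Of the 19 genes outside the families, 15 rose and 3 fell, with a median of 1.66, and the median of all tested genes was -0.01. In all, 37 of the 40 listed genes were called, 28 higher and 9 lower, where 85.5% of all tested genes were called, 42.2% higher and 43.4% lower. At least 2-fold rises were called for 23 of the 40, where 24.7% of all tested genes were called at least 2-fold higher. Scaled by library size only, which moves the median of all genes by -0.33, the same comparison called 23 higher and 14 lower.

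**Figure D1:**
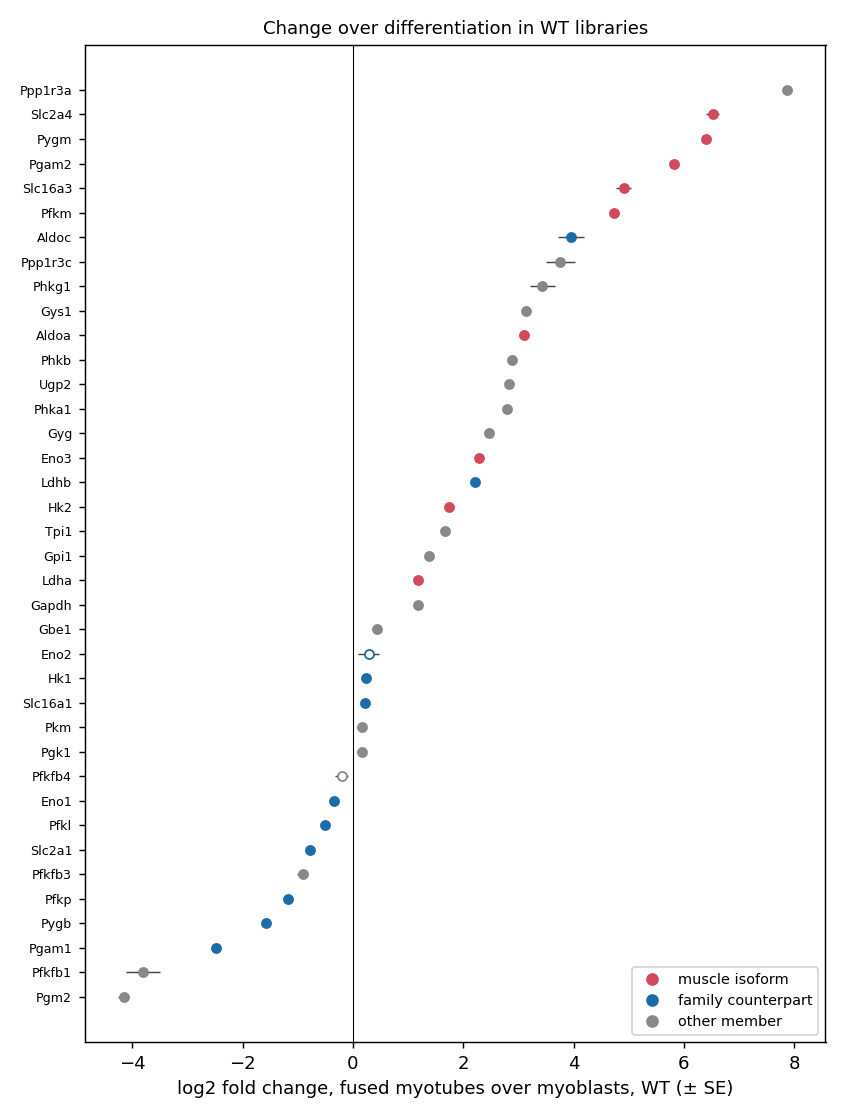
Log2 fold change (TMM scaling) from WT myoblasts to WT fused myotubes for 38 of the genes, with bars of 1 SE worked back from the test. Bars of genes with few counts at a stage can be too short. Red marks muscle isoforms, blue their family counterparts and grey the genes outside the families, and open symbols did not pass the test. The 9 red points all lie to the right of 0, up to 6.53 for Slc2a4, and the blue points lie on both sides, from -2.48 for Pgam1 to 3.95 for Aldoc; Hk1, Pgk1, Pkm and Slc16a1 change sign when scaled by library size only, and Eno1 with an offset for effective transcript length.

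The muscle isoforms rose over both intervals, except that Hk2 did not pass the test over the first. From WT myoblasts to differentiated myotubes 36 of the 40 genes were called, 25 higher and 11 lower, against 85.0% of all tested genes (42.4% higher, 42.6% lower). From differentiated to fused WT myotubes 36 were called, 28 higher and 8 lower, against 75.1% of all tested genes (37.4% higher, 37.7% lower). The median log2 fold change of the muscle isoforms was 3.15 over the first interval, from 24 h to 48 h, and 1.33 over the second. In KO-labelled cells the same 3 comparisons called 34, 36 and 37 of the 40, where 83.7%, 70.2% and 87.2% of all tested genes were called. All 9 muscle isoforms rose in KO-labelled cells too, with a median log2 fold change of 5.01 from myoblasts to fused myotubes. Scaled by library size only, the first interval in WT gave 21 higher and 14 lower, and in KO-labelled cells 20 higher and 15 lower in place of 24 and 10, where 41.3% of all tested genes were called higher and 42.5% lower with TMM scaling.

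Glucose enters muscle cells through the insulin-regulated transporter GLUT4, encoded by Slc2a4, and through the widely used transporter GLUT1, encoded by Slc2a1. Slc2a4 (chr11:69942539-69948188, minus strand) was at 1.02, 0.735 and 1.07 CPM in the 3 WT myoblast libraries, at 28.7, 29.1 and 27.7 CPM in differentiated and at 90.5, 91.5, 94.5 and 78.9 CPM in fused myotubes. The groups did not overlap, and each later stage was above the one before. The log2 fold change from myoblasts to fused myotubes was 6.53 (adjusted p 4.74e-27 by edgeR), a 92.1-fold rise. Slc2a1 (chr4:119108711-119137983, plus strand) went the other way. It was at 40.2, 40.1 and 43.3 CPM in WT myoblasts, 29.6, 32.8 and 35.6 CPM in differentiated and 23.3, 26.1, 22.9 and 23.8 CPM in fused myotubes, again without overlap. Its log2 fold change from myoblasts to fused myotubes was -0.78 ± 0.06 (SE, adjusted p 3.07e-12 by edgeR). By TPM, which counts transcripts per length, Slc2a4 took 3.08% ± 0.754 (SD, n = 3) of the summed Slc2a1 and Slc2a4 level in WT myoblasts, 51.3% ± 3.46 (SD, n = 3) in differentiated and 83.1% ± 1.67 (SD, n = 4) in fused myotubes.

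Hexokinase traps glucose in the cell as glucose 6-phosphate. Hk2, the insulin-regulated muscle form (chr6:82725025-82774454, minus strand), was at 31.9, 33.1 and 33.9 CPM in WT myoblasts and at 30.9, 32.4 and 35.6 CPM in differentiated myotubes, and these groups overlapped. In fused WT myotubes Hk2 was at 111, 111, 112 and 109.7 CPM, above every earlier library. Its log2 fold change was 0.01 ± 0.05 (SE, adjusted p 0.927 by edgeR) over the first interval, or -0.25 when scaled by library size only, and 1.74 ± 0.05 (SE, adjusted p 8.53e-22 by edgeR) over the second. Hk1, the widely expressed form (chr10:62268855-62379908, minus strand), fell and then recovered. It was at 346, 346 and 372 CPM in WT myoblasts, 154, 151 and 172 CPM in differentiated and 422, 410.0, 436 and 403 CPM in fused myotubes. From myoblasts to fused myotubes its log2 fold change was 0.23 ± 0.04 (SE, adjusted p 1.19e-05 by edgeR) with TMM scaling, but -0.09 when scaled by library size only. Hk2 was the minor form per length at every stage, with 7.42%, 15.6% and 18.6% of the summed TPM of both genes. The 3 WT differentiated libraries spread widely in this share, at 17.4, 13.1 and 16.4%.

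Phosphofructokinase commits glucose to glycolysis. Its muscle subunit Pfkm (chr15:98092589-98132451, plus strand) was at 52.4, 50.3 and 54.1 CPM in WT myoblasts, 447, 460.1 and 486 CPM in differentiated and 1431, 1414, 1425 and 1318 CPM in fused myotubes. The groups stood apart, and the log2 fold change from myoblasts to fused myotubes was 4.74 ± 0.05 (SE, adjusted p 8.43e-32 by edgeR), or 26.7-fold. The liver-type subunit Pfkl (chr10:77986947-78010083, minus strand) rose first and fell later, at 99.4, 101 and 105 CPM in WT myoblasts, 138, 141 and 154 CPM in differentiated and 72.8, 79.3, 71.5 and 64.3 CPM in fused myotubes. The platelet-type subunit Pfkp (chr13:6579768-6648777, minus strand) fell, at 34.2, 35.7 and 33.8, then 17.8, 19.4 and 19.4, then 14.4, 14.5, 15.5 and 16.6 CPM, although its change of -0.30 over the second interval became 0.10 with an offset for effective transcript length. From myoblasts to fused myotubes the log2 fold changes were -0.51 ± 0.05 (SE, adjusted p 1.68e-09 by edgeR) for Pfkl and -1.17 ± 0.05 (SE, adjusted p 1.83e-17 by edgeR) for Pfkp. Pfkm made up 30.4% ± 1.18 (SD, n = 3) of the summed TPM of the 3 subunits in WT myoblasts, 75.4% ± 1.01 (SD, n = 3) in differentiated and 94.8% ± 0.337 (SD, n = 4) in fused myotubes. Pfkm overlaps Senp1 and Pfkp overlaps Pitrm1 in the annotation, as some other members overlap a neighbour, and use of strand in the counting is not stated.

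The Pfkfb genes encode the enzymes that make and remove fructose 2,6-bisphosphate, an activator of phosphofructokinase. Of the 3 on the list none was called higher from WT myoblasts to fused myotubes. Another, Pfkfb2, was counted among the other pathway genes. It was at 7.61 to 9.09 CPM in WT myoblasts, 11.95 to 14.5 CPM in differentiated and 5.43 to 6.71 CPM in fused myotubes, so it rose over the first interval and fell over the second (0.61 and -1.09 on the log2 scale, both called). Pfkfb3, the form known for a strong kinase activity, was at 11.5, 12.8 and 13.4 CPM in WT myoblasts, 5.36, 6.70 and 7.53 CPM in differentiated and 7.44, 6.60, 6.54 and 6.22 CPM in fused myotubes. Its log2 fold change from the first to the last stage was -0.91 ± 0.10 (SE, adjusted p 4.7e-09 by edgeR). Pfkfb1, the form of liver and adult muscle, was low throughout, at 2.29 to 2.87 CPM in WT myoblasts and 0.123 to 0.320 CPM (2 to 7 counts) in fused myotubes, and fell by 3.81 on the log2 scale (edgeR adjusted p 5.67e-12). Pfkfb4 was at 6.01 to 6.79 CPM in WT myoblasts and 5.11 to 6.58 CPM in fused myotubes and did not pass the test (-0.20, edgeR adjusted p 0.103). Fbp2, the muscle fructose bisphosphatase that runs this step backwards, had 0 to 1 counts in WT myoblasts and 4 to 17 in WT fused libraries.

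Aldolase, triose phosphate isomerase and glyceraldehyde 3-phosphate dehydrogenase carry the sugar through the triose steps, and all 3 were abundant. Aldoa, the muscle aldolase (chr7:126795234-126800751, minus strand), was at 1024, 959 and 1100.2 CPM in WT myoblasts, 4348, 4111 and 4631 CPM in differentiated and 8536, 9072, 9345 and 8542 CPM in fused myotubes. Its groups did not overlap, and the log2 fold change from the first to the last stage was 3.11 ± 0.06 (SE, adjusted p 4.93e-26 by edgeR). Aldoc, the brain form, rose too, from 0.234 to 0.346 CPM to 3.46 to 6.15 CPM (log2 fold change 3.95), but Aldoa stayed above 99.9% of their summed TPM in every library. Gapdh was at 4143 to 4560.1 CPM in WT myoblasts, 5371 to 6045 CPM in differentiated and 9286 to 10309.5 CPM in fused myotubes. Tpi1, at 443 to 453, 748 to 791 and 1331 to 1476 CPM, and the glucose 6-phosphate isomerase Gpi1, at 402 to 439, 894 to 982 and 1061 to 1157 CPM, also rose at each stage. The log2 fold changes from myoblasts to fused myotubes were 1.19 for Gapdh, 1.66 for Tpi1 and 1.38 for Gpi1. The X-linked phosphoglycerate kinase Pgk1 changed little, at 846 to 864, 767 to 839 and 929.7 to 999 CPM, and its change of 0.16 from myoblasts to fused myotubes became -0.16 when scaled by library size only.

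Phosphoglycerate mutase showed one of the fullest exchanges. The muscle gene Pgam2 (chr11:5801640-5803733, minus strand, ENSMUSG00000020475.3) was at 15.05, 14.1 and 17.5 CPM in WT myoblasts, 525, 487 and 528 CPM in differentiated and 868, 927, 950.1 and 812 CPM in fused myotubes. The widely used gene Pgam1 (chr19:41911923-41918660, plus strand, ENSMUSG00000011752.7) was at 468, 454 and 465 CPM, then 234, 226 and 233 CPM, then 84.2, 85.8, 80.6 and 81.6 CPM. Neither gene's groups overlapped, and they moved in opposite directions at both intervals. From myoblasts to fused myotubes the log2 fold change was 5.83 ± 0.07 (SE, adjusted p 1.35e-30 by edgeR) for Pgam2, a 56.8-fold rise, and -2.48 ± 0.03 (SE, adjusted p 1.66e-29 by edgeR) for Pgam1, a 5.57-fold fall. Pgam2 made up 7.62% ± 0.620 (SD, n = 3) of their summed TPM in WT myoblasts, 84.5% ± 0.277 (SD, n = 3) in differentiated and 96.5% ± 0.330 (SD, n = 4) in fused myotubes.

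Glycogen phosphorylase, which frees glucose 1-phosphate from glycogen, exchanged its forms in the same way. The muscle gene Pygm (chr19:6384399-6398459, plus strand, ENSMUSG00000032648.14) was at 25.1, 24.9 and 27.1 CPM in WT myoblasts, 709, 739.6 and 805 CPM in differentiated and 2181, 2233, 2249 and 2012 CPM in fused myotubes. The brain-type gene Pygb (chr2:150786735-150831758, plus strand, ENSMUSG00000033059.7) was at 48.3, 47.1 and 46.7 CPM, then 11.5, 11.1 and 12.6 CPM, then 15.3, 15.04, 18.01 and 15.4 CPM, so its lowest point was the differentiated stage. The log2 fold changes from myoblasts to fused myotubes were 6.40 ± 0.07 (SE, adjusted p 1.24e-31 by edgeR) for Pygm, or 84.3-fold, and -1.57 ± 0.05 (SE, adjusted p 1.2e-20 by edgeR) for Pygb. Pygm held 41.3% ± 3.41 (SD, n = 3) of the phosphorylase TPM in WT myoblasts and 98.8% ± 0.132 (SD, n = 3) in differentiated myotubes, where the exchange was nearly complete, and 99.3% ± 0.0985 (SD, n = 4) in fused myotubes.

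The promoters of these 2 pairs are shown as examples of a gene that rose strongly and a counterpart that fell. Pfkm with Pfkl and Pfkp also meets this description, and matches in the windows of these genes are only counted below. E-boxes (CANNTG) are the sites that the muscle regulators MyoD and myogenin are known to bind. They are in capitals below. The sequences are from RefSeq on GRCm38.p6 and run 5′ to 3′ from 250 bases before to 50 after the start that RefSeq gives, which differs from the start in the GENCODE gene coordinates above. The windows lie at chr11:5803747-5804046 (minus strand) for Pgam2, chr19:41911621-41911920 (plus strand) for Pgam1, chr19:6384158-6384457 (plus strand) for Pygm and chr2:150786546-150786845 (plus strand) for Pygb.
Pgam2: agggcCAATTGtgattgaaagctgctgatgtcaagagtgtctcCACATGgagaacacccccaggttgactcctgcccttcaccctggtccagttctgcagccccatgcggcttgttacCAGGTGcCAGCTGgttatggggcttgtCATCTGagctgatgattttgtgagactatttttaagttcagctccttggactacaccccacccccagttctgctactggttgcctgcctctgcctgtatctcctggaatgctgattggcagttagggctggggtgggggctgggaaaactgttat
Pgam1: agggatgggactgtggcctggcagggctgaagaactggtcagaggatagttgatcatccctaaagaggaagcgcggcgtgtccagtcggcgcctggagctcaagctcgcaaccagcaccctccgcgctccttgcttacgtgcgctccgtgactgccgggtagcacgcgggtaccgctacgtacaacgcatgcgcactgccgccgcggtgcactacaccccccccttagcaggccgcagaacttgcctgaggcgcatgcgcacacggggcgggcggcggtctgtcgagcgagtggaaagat
Pygm: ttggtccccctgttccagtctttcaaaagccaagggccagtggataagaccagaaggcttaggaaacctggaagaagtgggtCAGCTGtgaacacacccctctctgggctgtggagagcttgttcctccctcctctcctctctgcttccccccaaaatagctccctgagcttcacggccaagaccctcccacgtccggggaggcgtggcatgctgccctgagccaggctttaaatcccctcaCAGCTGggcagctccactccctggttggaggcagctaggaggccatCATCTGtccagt
Pygb: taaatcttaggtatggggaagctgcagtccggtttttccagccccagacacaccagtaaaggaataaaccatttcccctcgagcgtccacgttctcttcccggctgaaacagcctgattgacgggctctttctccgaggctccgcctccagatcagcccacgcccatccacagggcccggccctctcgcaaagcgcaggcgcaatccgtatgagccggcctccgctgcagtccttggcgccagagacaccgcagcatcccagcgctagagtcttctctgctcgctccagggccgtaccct

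A count over both strands found 5 matches to CANNTG in the Pgam2 window and 3 in the Pygm window, and none in those of Pgam1 and Pygb. The families were not alike in this. Both Ldha windows held 2 CANNTG matches and that of Ldhb held none, which is the same arrangement. In contrast, the windows of Hk2 and Slc16a3 held none, while the 2 of Hk1 held 3 and 1 and that of Slc16a1 held 1. The Pfkm windows held 3, 0, 1 and 1, that of Pfkl held 3 and that of Pfkp held none. CAGCTG, one form of that motif and part of the same matches, was present 1 time for Pgam2 and 2 times for Pygm. Such matches are common. CANNTG was present in 72.31% and CAGCTG in 16.3% of 32851 promoter windows of this length. Of the 39 genes with an entry, all but Slc2a4, 40 of 55 windows held CANNTG and 14 of 55 held CAGCTG. A match describes these letters only, and binding was not measured.

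Enolase makes phosphoenolpyruvate, and its muscle gene Eno3 (chr11:70657202-70662513, plus strand) rose at both intervals. Eno3 was at 537, 516 and 541 CPM in WT myoblasts, 1062, 981 and 1052 CPM in differentiated and 2585, 2659.5, 2684 and 2439 CPM in fused myotubes. Its log2 fold change from the first to the last stage was 2.29 ± 0.05 (SE, adjusted p 5.8e-26 by edgeR). Eno1, the widely used form (chr4:150236721-150248879, plus strand), was at 622, 593 and 642 CPM, then 731, 716 and 773 CPM, then 468, 493, 509 and 488 CPM. Its near-identical copy Eno1b, which is not on the list, had more counts than Eno1 in WT myoblasts and fell at both intervals, at 1242, 1116 and 1216 CPM, then 1008, 963 and 1044 CPM, then 499, 510.3, 527 and 502 CPM. How reads were split between the copies is uncertain, and so is the rise of Eno1 over the first interval. Eno2, the neuronal form, was at 1.27 to 1.51 CPM in WT myoblasts and 1.36 to 2.15 CPM in fused myotubes, which overlapped. Eno3 held 55.1% ± 0.980 (SD, n = 3) of the enolase TPM in WT myoblasts, 53.7% ± 1.70 (SD, n = 3) in differentiated and 79.8% ± 0.614 (SD, n = 4) in fused myotubes, with Eno1b left out of the family. With Eno1b added, the Eno3 share was lower, at 27.8 to 28.7% in WT myoblasts, 37.7 to 40.3% in differentiated and 70.4 to 72.2% in fused myotubes. The step over the first interval depends on this choice, since the share changed by -1.34 points by TPM, by 12.0 points by counts and by 10.3 points with Eno1b added. Eno1 also has a short transcript, and its log2 fold change of -0.34 from myoblasts to fused myotubes became 0.64 with an offset for effective transcript length.

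Pyruvate kinase makes pyruvate, and its muscle forms are encoded by Pkm. The gene (chr9:59656368-59679375, plus strand, ENSMUSG00000032294.17) carries 2 mutually exclusive exons. The M1 exon gives the form of adult muscle and brain, and the M2 exon gives the form of dividing cells, which can switch between active and less active states. Both exons are 167 bases long on chromosome 9 of GRCm38, the M1 exon at chr9:59675029-59675195 and the M2 exon at chr9:59675568-59675734. They are shown from 5′ to 3′ because they define the M1 and M2 transcripts, with capitals at the 64 positions where they differ and lower case at the 103 identical ones (61.68%).
Pkm M1 exon: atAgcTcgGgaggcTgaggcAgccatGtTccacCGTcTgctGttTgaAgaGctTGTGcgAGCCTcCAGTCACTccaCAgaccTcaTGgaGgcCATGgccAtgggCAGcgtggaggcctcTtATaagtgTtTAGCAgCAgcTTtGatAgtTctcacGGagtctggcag
Pkm M2 exon: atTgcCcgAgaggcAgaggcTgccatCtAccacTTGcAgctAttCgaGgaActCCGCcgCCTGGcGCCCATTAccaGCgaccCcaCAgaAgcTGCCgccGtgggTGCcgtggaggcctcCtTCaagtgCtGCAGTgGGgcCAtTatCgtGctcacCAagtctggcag

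The total level of Pkm changed little while the transcripts changed over. Pkm was at 2717, 2605 and 2802 CPM in WT myoblasts, 2378, 2293 and 2514 CPM in differentiated and 2972, 3129.7, 3135 and 2936 CPM in fused myotubes. The log2 fold change from the first to the last stage was 0.17 (edgeR adjusted p 0.00153) with TMM scaling and -0.15 when scaled by library size only. Transcripts with the M1 exon had 12802, 8605 and 10915 estimated counts in the 3 WT myoblast libraries and those with the M2 exon had 60714, 48914 and 68796. In the 3 WT differentiated libraries the M1 transcripts had 23508, 25136 and 34378 counts and the M2 transcript 24567, 25233 and 34544. In the 4 WT fused libraries M1 had 38267, 29309, 28744 and 41123 counts and M2 had 25044, 18839, 20915 and 28424. M2 was thus ahead in every WT myoblast library, both were close to level at 48 h, and M1 was ahead in every fused library. The M1 share of counts with either exon was 15.4% ± 1.89 (SD, n = 3), 49.6% ± 0.574 (SD, n = 3) and 59.6% ± 1.35 (SD, n = 4) at the 3 stages. Of the 11 annotated Pkm transcripts 2 carry M1 and 1 carries M2, and Pkm-202 (M1, 2041 nt) and Pkm-201 (M2, 2432 nt) took nearly all of these counts. Their lengths differ, so reads outside the exons also entered the estimate.

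**Figure D2:**
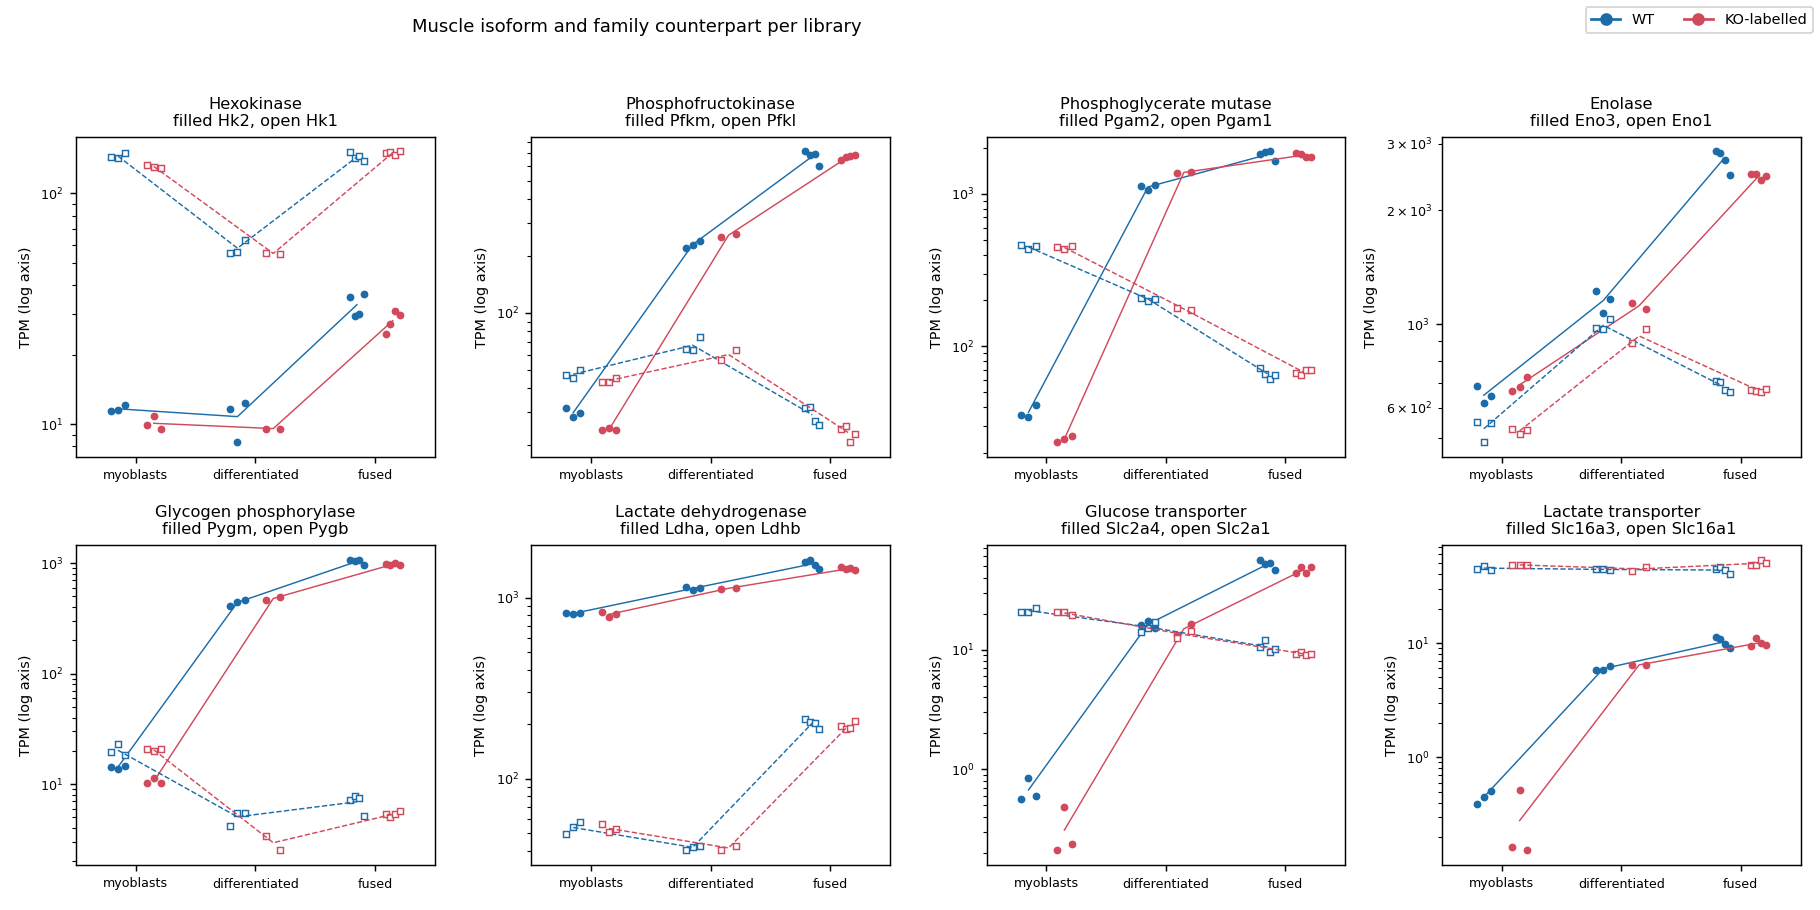
Level in TPM (log axis) of the muscle isoform (filled circles) and of 1 counterpart (open squares) in 8 families in each library at 3 stages, with lines joining group means; blue is WT and red is KO-labelled. The lines of Pgam2 and Pgam1, of Pygm and Pygb, and of Pfkm and Pfkl cross between 24 h and 48 h in both genotypes. Those of Slc2a4 and Slc2a1 also cross there, but narrowly, and the Hk2 line stays under that of Hk1.

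Lactate dehydrogenase and the lactate transporters did not exchange in the same way. Ldha, the subunit common in fast muscle (chr7:46841475-46855627, plus strand), was at 775, 758 and 790.0 CPM in WT myoblasts, 1207, 1157 and 1212 CPM in differentiated and 1735, 1871, 1777 and 1673 CPM in fused myotubes. Ldhb, the subunit of heart and oxidative fibres (chr6:142490249-142507957, minus strand), was at 33.5, 33.2 and 36.6 CPM, then 30.1, 25.9 and 30.1 CPM, then 159, 167, 168 and 149 CPM. Both rose by the fused stage, with log2 fold changes of 1.19 for Ldha and 2.22 for Ldhb. Ldhb rose by more, and the Ldha share of their summed TPM went from 93.8% ± 0.439 (SD, n = 3) in WT myoblasts to 96.4% ± 0.130 (SD, n = 3) in differentiated and down to 88.3% ± 0.360 (SD, n = 4) in fused myotubes.

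Slc16a3, which encodes MCT4, the lactate exporter of glycolytic fibres (chr11:120948480-120960868, plus strand), was barely present in WT myoblasts at 0.668, 0.648 and 0.602 CPM. It reached 10.01, 9.66 and 10.2 CPM in differentiated and 19.5, 21.6, 19.5 and 17.3 CPM in fused WT myotubes, without overlap between stages. The log2 fold change from the first to the last stage was 4.91 (adjusted p 1.49e-22 by edgeR). Slc16a1, which encodes MCT1 (chr3:104638668-104658462, plus strand), was at 107, 112 and 107 CPM in WT myoblasts, 118, 118 and 116 CPM in differentiated and 124, 134, 128 and 117 CPM in fused myotubes. Its change from the first to the last stage was 0.21 with TMM scaling and -0.11 when scaled by library size only. Slc16a3 remained the minor transporter per length, with 0.977%, 11.9% and 18.9% of the summed TPM.

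**Figure D3:**
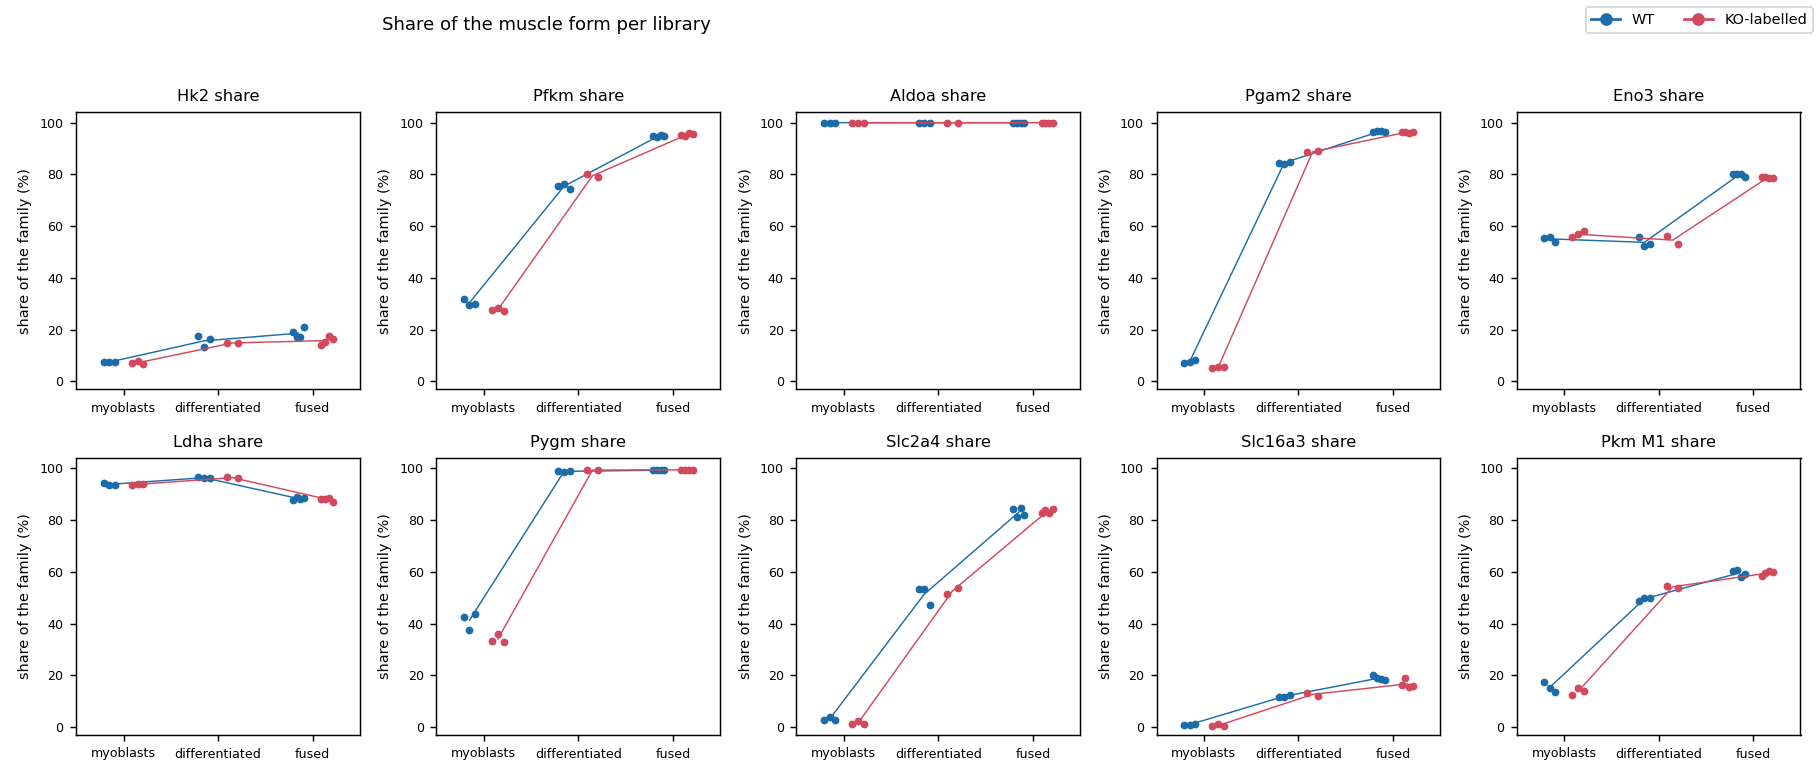
Share (%) of the muscle isoform in the summed TPM of its family, and of M1 transcripts in the Pkm counts with either exon, for each library at 3 stages; blue is WT and red is KO-labelled. Shares of Pfkm, Pgam2, Pygm, Slc2a4 and Pkm M1 rise with stage in both genotypes, the Ldha share peaks at 48 h, and the Aldoa share stays above 99.9%.

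The shares were tested on their own, with exact two-sided permutation tests of the difference of means and adjustment over 60 tests. The smallest p that 3 against 3 libraries allow is 0.1, and 3 against 4 allow 0.0286. From WT myoblasts to fused myotubes the exact p was 0.0286 for 9 of the 10 shares, all but Aldoa, which had 0.114. The smallest adjusted p over all 60 tests was 0.0952. With these group sizes no share could reach 0.05 after adjustment, so the adjusted values say nothing on whether the shares differ. The largest differences in points were 88.9 for Pgam2, 79.98 for Slc2a4, 64.5 for Pfkm, 58.00 for Pygm and 44.2 for the Pkm M1 transcripts.

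Gyg, Gys1 and Ugp2, which act in glycogen synthesis, rose in WT cells. Gyg, the glycogenin that primes each particle, was at 41.3, 39.03 and 39.9 CPM in WT myoblasts, 159, 157 and 159 CPM in differentiated and 216, 235, 224 and 217 CPM in fused myotubes. Gys1, the muscle glycogen synthase, was at 85.7, 79.9 and 86.6 CPM, then 377, 391 and 415 CPM, then 743, 738, 757 and 718 CPM. Ugp2, which makes the UDP-glucose that the synthase uses, was at 50.8, 49.3 and 47.8 CPM, then 256, 238 and 237 CPM, then 360.4, 356, 342 and 346 CPM. All 3 were called higher at both intervals, and their log2 fold changes from myoblasts to fused myotubes were 2.47, 3.13 and 2.83. The branching enzyme Gbe1 rose much less, from 16.6 to 18.3 CPM to 21.6 to 25.3 CPM (log2 fold change 0.44 ± 0.06 SE, adjusted p 2.22e-07 by edgeR).

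Phosphorylase kinase switches glycogen phosphorylase on. Its muscle alpha subunit Phka1 was at 35.8, 34.8 and 34.1 CPM in WT myoblasts, 102, 96.4 and 102 CPM in differentiated and 253, 235, 232 and 242 CPM in fused myotubes. The beta subunit Phkb went from 22.96 to 23.9 CPM to 78.3 to 87.1 CPM and 164 to 179 CPM. The muscle catalytic subunit Phkg1 reached only 3.63 to 5.75 CPM in fused WT myotubes from 0.368 to 0.519 CPM in myoblasts, and it overlaps the far more abundant Chchd2 on the same strand. Log2 fold changes from myoblasts to fused myotubes were 2.79 for Phka1, 2.88 for Phkb and 3.44 for Phkg1, and all 3 passed the test.

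The largest rise of all 39 tested genes was that of Ppp1r3a, the muscle subunit that brings protein phosphatase 1 to glycogen. It was at 0.809, 1.04 and 1.04 CPM in WT myoblasts, 62.8, 62.95 and 65.7 CPM in differentiated and 237, 228, 217 and 220.4 CPM in fused myotubes. The log2 fold change between the outer stages was 7.87 (adjusted p 1.24e-31 by edgeR), from 23 to 31 counts in a WT myoblast library. The more widely used relative of Ppp1r3a, Ppp1r3c, moved later, at 0.216 to 0.422 CPM in WT myoblasts, 0.522 to 0.566 CPM in differentiated and 3.70 to 4.63 CPM in fused myotubes. Pgm2 fell the most, at 37.2, 35.1 and 35.2 CPM, then 10.5, 11.2 and 11.5 CPM, then 2.24, 2.03, 1.54 and 2.10 CPM (log2 fold change -4.16, adjusted p 1.05e-24 by edgeR). Pgm2 encodes a phosphomutase known to act mainly on pentose phosphates. Pgm1, the phosphoglucomutase that links glycogen to glycolysis, is not on the list and was at a mean of 52.9, 134 and 342 CPM in WT at the 3 stages.

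In myoblasts, 8 of the 40 genes were lower in KO-labelled cells and none was higher, and 5 of the 8 were muscle isoforms. Of all tested genes 11.6% were called in this comparison, 4.86% higher and 6.69% lower. The median log2 fold change of the 39 tested genes was -0.04 and that of all tested genes 0.01. The 9 muscle isoforms had a median of -0.25, with 5 lower and 4 not called, and of the 11 tested counterparts 1, Hk1, was lower. The summed skeletal muscle markers moved with these genes, at 1781 to 1846 CPM in KO-labelled against 2186 to 2455 CPM in WT myoblasts, and 7 of the 8 markers were called lower, with a median of -0.55. Summed proliferation markers were at 949 to 973 CPM against 863 to 903 CPM, and 1 of the 4 was called higher. The part of the markers' differences in the results on these genes was not tested.

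Pygm, the muscle phosphorylase, was at 15.6, 16.6 and 17.4 CPM in KO-labelled against 25.1, 24.9 and 27.1 CPM in WT myoblasts. Pgam2, the muscle mutase, was at 10.2, 10.4 and 10.8 CPM against 15.05, 14.1 and 17.5 CPM. Phka1, the phosphorylase kinase subunit, was at 26.7, 26.2 and 27.2 CPM against 35.8, 34.8 and 34.1 CPM. In all 3 genes every KO-labelled library was below every WT library. The log2 fold changes were -0.64 ± 0.07 (SE, adjusted p 7.3e-07 by edgeR) for Pygm, -0.58 ± 0.09 (SE, adjusted p 4.82e-05 by edgeR) for Pgam2 and -0.39 ± 0.05 (SE, adjusted p 3.68e-06 by edgeR) for Phka1. Pfkm was at 44.6, 45.2 and 43.00 against 52.4, 50.3 and 54.1 CPM (log2 fold change -0.24 ± 0.05 SE, adjusted p 0.00165 by edgeR). These 4 calls held under every alternative analysis run.

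Hk2 was at 27.4, 28.6 and 27.1 CPM in KO-labelled and 31.9, 33.1 and 33.9 CPM in WT myoblasts (log2 fold change -0.25 ± 0.05 SE, adjusted p 0.00185 by edgeR), and this call was lost with an offset for effective transcript length (edgeR adjusted p 0.458). Hk1 was at 333, 325 and 311 against 346, 346 and 372 CPM (log2 fold change -0.14 ± 0.04 SE, adjusted p 0.0488 by edgeR) and was lost in 16 of 27 alternative settings. The groups did not overlap in either hexokinase. The other 2 of the 8 genes had few counts. Ppp1r3a had 12 to 21 counts in a KO-labelled and 23 to 31 in a WT myoblast library, and its log2 fold change was -0.84 ± 0.25 (SE, adjusted p 0.0296 by edgeR). Slc16a3 had 8 to 14 counts against 15 to 19, and its log2 fold change was -1.02 ± 0.31 (SE, adjusted p 0.0298 by edgeR). Leaving out single myoblast libraries ended both calls, with an edgeR adjusted p of up to 0.191 for Ppp1r3a and 0.171 for Slc16a3. The count of 8 called genes fell to 5 without WT replicate 2, WT replicate 3, KO-labelled replicate 1 or KO-labelled replicate 3, and it was 5, all lower, with the effective length offset. Slc2a4, at 0.372, 0.949 and 0.458 CPM in KO-labelled and 1.02, 0.735 and 1.07 CPM in WT myoblasts, did not pass the test, and the groups overlapped (log2 fold change -0.71 ± 0.30 SE, adjusted p 0.137 by edgeR).

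In differentiated myotubes 11 of the 40 genes were higher in the KO-labelled libraries and 2 were lower, where 25.2% of all tested genes were called, 11.0% higher and 14.1% lower. Of the 8 genes lower in KO-labelled myoblasts, 4 were higher here, namely Pfkm, Pgam2, Pygm and Ppp1r3a. Muscle isoforms made up 5 of the 11 higher genes and their median log2 fold change was 0.21, against 0.03 for the 39 genes and -0.01 for all tested genes. Scaled by library size only, 7 were higher and 5 lower, and over all genes 1039 were called higher and 2812 lower in place of 1671 and 2139. The KO-labelled group had 2 libraries at this stage. Leaving out either leaves an arm of 1 library, which is then assumed to vary as the other groups do. Without KO-labelled replicate 2 the count of 13 fell to 5 in such a fit, and with the effective length offset it was 8, with 7 higher and 1 lower. Skeletal muscle markers summed to 36996 to 41692 CPM in KO-labelled and 35917 to 41105 CPM in WT libraries, with 2 of the 8 higher and 1 lower. Proliferation markers summed to 20.9 to 22.7 against 25.9 to 33.1 CPM, with 3 of the 4 lower and 1 higher. Macrophage and leukocyte markers summed to 24.3 to 28.0 against 15.5 to 18.5 CPM, mostly Itgam at 23.5 to 27.2 against 14.9 to 17.3 CPM, while Adgre1 and Csf1r had at most 3 counts and Ptprc at most 7 in these libraries. The part of these markers in the results was not tested.

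Pgam2 was at 689 and 714 CPM in the 2 KO-labelled libraries and 525, 487 and 528 CPM in the 3 WT libraries of differentiated myotubes. Pfkm was at 549.5 and 593 CPM against 447, 460.1 and 486 CPM. Ugp2 was at 299 and 288 CPM against 256, 238 and 237 CPM. Both KO-labelled libraries were above all WT libraries in these genes, with log2 fold changes of 0.45 ± 0.06 (SE, adjusted p 2.62e-06 by edgeR) for Pgam2, 0.30 ± 0.05 (SE, adjusted p 2.76e-05 by edgeR) for Pfkm and 0.27 ± 0.04 (SE, adjusted p 3.31e-05 by edgeR) for Ugp2. Ppp1r3a, at 81.3 and 75.2 against 62.8, 62.95 and 65.7 CPM, was also higher (log2 fold change 0.29 ± 0.06 SE, adjusted p 0.000296 by edgeR). Pygb, the brain-type phosphorylase, was lower, at 7.17 and 7.39 CPM against 11.5, 11.1 and 12.6 CPM (log2 fold change -0.70 ± 0.09 SE, adjusted p 2.13e-06 by edgeR). These 5 calls held under every alternative analysis run, including the fits with a single KO-labelled library, whose spread comes from the other groups.

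Pygm was at 852 and 973 CPM in KO-labelled and 709, 739.6 and 805 CPM in WT differentiated myotubes (log2 fold change 0.28 ± 0.06 SE, adjusted p 0.000706 by edgeR). Aldoa was at 4867 and 5453 against 4348, 4111 and 4631 CPM (log2 fold change 0.24 ± 0.06 SE, adjusted p 0.00610 by edgeR). Both were lost only when KO-labelled replicate 2 was left out, with an edgeR adjusted p of 0.0691 for Pygm and 0.185 for Aldoa. Tpi1 (0.19) behaved likewise, with 0.0592 by edgeR without that library. Ldhb was at 34.2 and 33.8 against 30.1, 25.9 and 30.1 CPM (log2 fold change 0.24 ± 0.07 SE, adjusted p 0.0112 by edgeR). The remaining calls were small and were lost in 5 to 10 settings, namely the rises of Gpi1 (0.15), Ldha (0.14), Slc16a1 (0.16) and Ldhb, and the fall of Gbe1 (-0.22).

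In fused myotubes most of the muscle isoforms were close in both genotypes. KO-labelled cells had 2 of the 40 higher and 6 lower, where 13.0% of all tested genes were called, 6.32% higher and 6.72% lower. The median log2 fold change was 0.00 for the 39 tested genes and -0.04 for the muscle isoforms, of which 2, Hk2 and Eno3, were lower. The muscle markers summed to 35945 to 37213 CPM in KO-labelled and 35612 to 38690 CPM in WT libraries. By edgeR none of the 8 was called, and 3 had an unadjusted p under 0.05. Without KO-labelled replicate 1 the count of 8 called genes fell to 5, and with an offset for effective transcript length it was 4, with 2 higher and 2 lower.

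Pfkp and Pfkl, the counterparts of Pfkm, differed in opposite directions. Pfkp was at 19.01, 20.5, 18.4 and 19.8 CPM in the 4 KO-labelled and 14.4, 14.5, 15.5 and 16.6 CPM in the 4 WT fused libraries, every KO-labelled value being the higher. Pfkl was at 59.6, 54.7, 56.8 and 52.9 CPM against 72.8, 79.3, 71.5 and 64.3 CPM, every KO-labelled value being the lower. Log2 fold changes were 0.34 ± 0.06 (SE, adjusted p 0.000162 by edgeR) for Pfkp and -0.36 ± 0.05 (SE, adjusted p 5.39e-05 by edgeR) for Pfkl. Pfkm, which made up most of the phosphofructokinase at this stage, was at 1404, 1433, 1437 and 1430.3 against 1431, 1414, 1425 and 1318 CPM (log2 fold change 0.03 ± 0.04 SE, adjusted p 0.670 by edgeR). Slc16a1, the MCT1 gene, was higher, at 141, 144, 159 and 145 against 124, 134, 128 and 117 CPM (log2 fold change 0.23 ± 0.04 SE, adjusted p 0.000525 by edgeR).

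Phka1 was lower again, at 201, 201, 216 and 214 CPM in KO-labelled and 253, 235, 232 and 242 CPM in WT fused myotubes (log2 fold change -0.21 ± 0.03 SE, adjusted p 9.35e-05 by edgeR), without overlap. Hk2 was at 88.8, 95.5, 99.7 and 94.6 against 111, 111, 112 and 109.7 CPM (log2 fold change -0.22 ± 0.04 SE, adjusted p 0.000272 by edgeR), also without overlap. The calls of Pfkl, Pfkp, Phka1 and Slc16a1 held under every alternative run, while that of Hk2 was lost with the effective length offset (edgeR adjusted p 0.280). Pgm2 was at 0.753, 1.45, 1.23 and 1.67 against 2.24, 2.03, 1.54 and 2.10 CPM (log2 fold change -0.66 ± 0.18 SE, adjusted p 0.0145 by edgeR), with overlapping groups, and was lost in 4 settings. Pgk1, at 889.8, 897, 898 and 836 against 932, 999, 965 and 929.7 CPM (log2 fold change -0.12 ± 0.04 SE, adjusted p 0.0301 by edgeR), and Eno3, at 2416, 2454, 2369 and 2287 against 2585, 2659.5, 2684 and 2439 CPM (log2 fold change -0.12 ± 0.04 SE, adjusted p 0.0359 by edgeR), were lost in 5 and 7 settings.

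**Figure D4:**
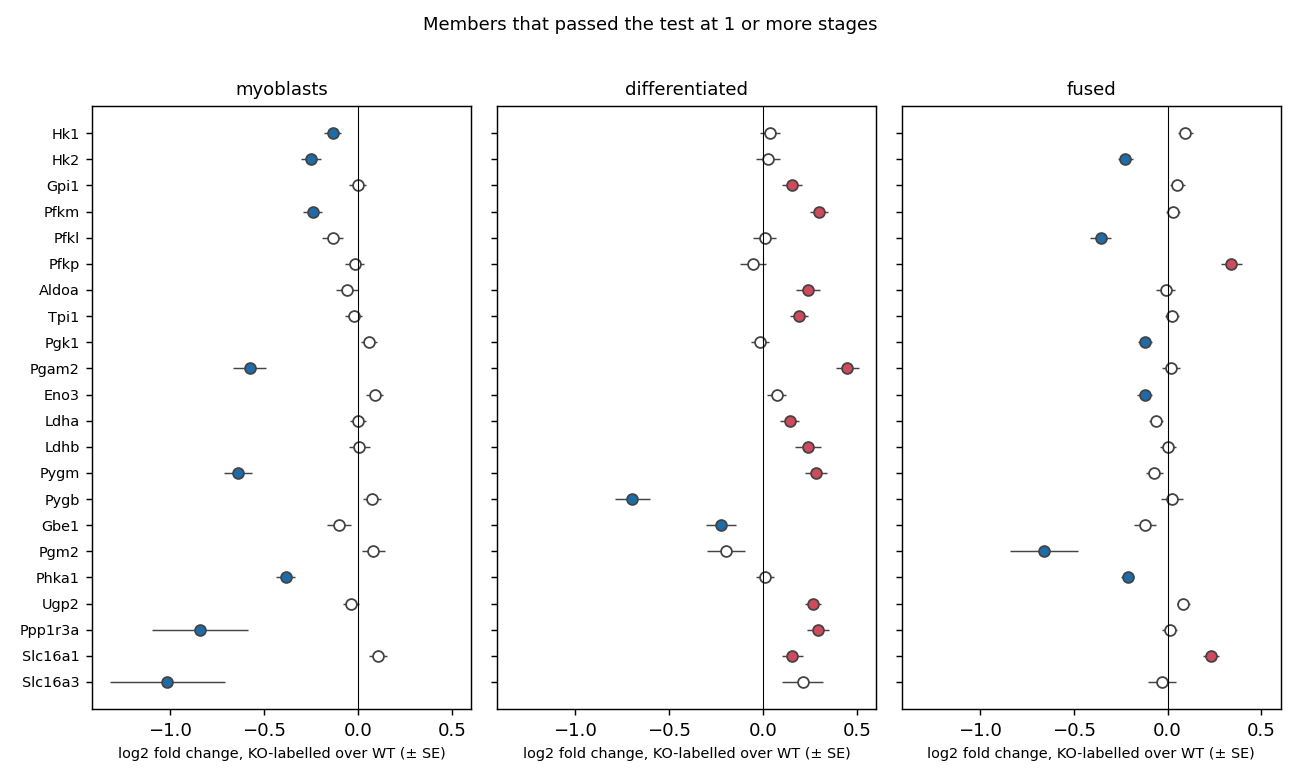
Log2 fold change of KO-labelled over WT (TMM scaling) at each stage for the 22 genes called in at least 1 stage, with bars of 1 SE; red is higher, blue is lower and open symbols did not pass the test. The called genes in myoblasts all lie left of 0, most of those in differentiated myotubes lie right of 0, and in fused myotubes Pfkp and Slc16a1 lie right.

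The difference of the genotype effect between stages was tested directly. From myoblasts to differentiated myotubes it was called in 12 of the 40 genes, positive in 10 and negative in 2, where 19.1% of all tested genes were called (7.78% positive, 11.3% negative). For the muscle isoforms it was positive in 6 of 9, with a median of 0.54, while the median of all tested genes was -0.03. Scaled by library size only there were 9 positive and 4 negative. The effect on Pgam2 changed by 1.03 ± 0.11 (SE, adjusted p 7.35e-08 by edgeR), on Pygm by 0.92 ± 0.09 (SE, adjusted p 5.62e-08 by edgeR), on Pfkm by 0.54 ± 0.07 (SE, adjusted p 1.83e-06 by edgeR) and on Ppp1r3a by 1.14 ± 0.26 (SE, adjusted p 0.00239 by edgeR). Pygb went the other way (log2 fold change -0.77 ± 0.10 SE, adjusted p 4.29e-06 by edgeR). From differentiated to fused myotubes the difference was called in 15 genes, 3 positive and 12 negative, where 14.8% of all tested genes were called (8.27% positive, 6.53% negative). It was negative in 7 of 9 muscle isoforms, with a median of -0.25. Without KO-labelled differentiated replicate 2 that count of 15 fell to 8, and scaled by library size only there were 4 positive and 5 negative. With the effective length offset there were 1 positive and 5 negative. From myoblasts to fused myotubes 10 genes were called, 7 positive and 3 negative, where 10.3% of all tested genes were called (5.75% positive, 4.55% negative). That count fell to 6 without WT myoblast replicate 2, WT myoblast replicate 3 or KO-labelled myoblast replicate 1, and with the effective length offset it was 5, all positive. These comparisons share libraries with those at single stages.

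The isoform shares were compared between genotypes as well. In myoblasts the Pygm share was 33.1, 35.9 and 32.95% in KO-labelled and 42.6, 37.4 and 43.9% in WT libraries, and the Pgam2 share 5.01, 5.37 and 5.36% against 7.21, 7.32 and 8.33%. In differentiated myotubes the Pgam2 share was 88.6 and 88.9% against 84.5, 84.2 and 84.7%, and the Pfkm share 80.04 and 78.8% against 75.5, 76.3 and 74.3%. None of these pairs of groups overlapped at the stages named, but the exact two-sided permutation p was 0.1 in each, the smallest these group sizes allow. The M1 transcripts of Pkm took 54.6 and 53.8% in KO-labelled and 48.9, 49.9 and 49.9% in WT differentiated myotubes, a difference of 4.67 points (exact permutation p 0.1, the smallest possible). The M1 shares overlapped in myoblasts, at 12.4, 15.1 and 13.9% against 17.4, 14.96 and 13.7%. They overlapped in fused myotubes too, at 58.4, 59.4, 60.4 and 59.8% against 60.4, 60.9, 57.9 and 59.1%. In fused myotubes the Eno3 share was 78.89, 78.83, 78.39 and 78.54% in KO-labelled and 80.14, 80.14, 80.13 and 78.91% in WT libraries, without overlap (exact permutation p 0.0286, adjusted 0.0952). With Eno1b added to the family the groups overlapped, at 70.1 to 70.5% against 70.4 to 72.2% (exact permutation p 0.0857).

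Other genes of the same pathways were counted from a fixed list of 46, of which 32 were tested. From WT myoblasts to fused myotubes 22 rose and 8 fell, where 42.2% of all tested genes were called higher and 43.4% lower. Pgm5, which encodes aciculin, a protein of muscle attachment sites without known mutase activity, rose by 6.22 on the log2 scale, Nhlrc1, the ubiquitin ligase malin that acts at glycogen, by 4.33 and the transporter gene Slc2a6 by 4.29. In KO-labelled against WT cells 4 of the 32 were lower in myoblasts and none higher, against 6.69% lower and 4.86% higher over all tested genes. In differentiated myotubes 7 were higher and 7 lower, against 11.0% and 14.1%. In fused myotubes 3 were higher and 2 lower, against 6.32% and 6.72%. Slc2a6 was lower at all 3 stages, with log2 fold changes of -0.54, -0.76 and -0.44 (edgeR adjusted p 0.0346, 4.83e-08 and 4.37e-06). The other named differences were Gaa (-0.42) and Stbd1 (-0.26) in myoblasts, Ppp1r3e (-0.58) and Ppp1r3d (0.50) in differentiated myotubes, and Ppp1r3b (0.52) and Tigar (-0.32) in fused myotubes.

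Regulators of these genes, a list of 16, gave 10 that rose and 6 that fell from WT myoblasts to fused myotubes, against the same 42.2% and 43.4% of all tested genes. Among them were Prkag3, a muscle subunit of AMP-activated kinase, with 6.14 and Epas1, which encodes the hypoxia factor HIF-2alpha, with 3.85. Mlxipl, which encodes the glucose-responsive factor ChREBP, was also called higher, but from 0 to 1 counts in a WT myoblast library to 6 to 12 in a fused one, so no fold is given. Txnip, whose protein promotes removal of glucose transporters from the membrane, was at a mean of 3.46 ± 0.618 CPM (SD, n = 3) in WT myoblasts, 6.35 ± 0.760 CPM (SD, n = 3) in differentiated and 39.1 ± 2.17 CPM (SD, n = 4) in fused myotubes. In KO-labelled myoblasts 2 of the 16 were lower and none higher, against 6.69% and 4.86% of all tested genes, and Hif1a, which encodes the hypoxia factor HIF-1alpha, was one of them (-0.12). In differentiated myotubes 3 were higher and 3 lower, against 11.0% and 14.1%, among them Epas1 (-0.92), Prkag3 (0.59) and Myc (-0.57), and in fused myotubes Tbc1d4 (0.40) and Prkag3 (0.12) were higher, where 6.32% of all tested genes were.

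Of 7 factors known to act on the choice of the Pkm exon, 6 fell and 1 rose from WT myoblasts to fused myotubes, where 43.4% of all tested genes fell and 42.2% rose. Ptbp1, which represses the M1 exon, was at a mean of 445 ± 13.2 CPM (SD, n = 3) in WT myoblasts, 86.03 ± 3.82 CPM (SD, n = 3) in differentiated and 25.8 ± 1.41 CPM (SD, n = 4) in fused myotubes (-4.11 on the log2 scale). Nek2 (-5.45) and Hnrnpa1 (-2.79), which also favour M2, fell with it. The 4 proliferation markers fell too, with a median of -9.52 in this comparison, and their part in the fall of these factors was not tested. In KO-labelled myoblasts Srsf3 (0.23), Nek2 (0.21) and Hnrnpa1 (0.14) were higher, where 4.86% of all tested genes were. In differentiated myotubes, where the M1 shares of the genotypes did not overlap, Nek2 (-1.57) and Hnrnpa1 (-0.16) were lower and Rbm4 (0.19) was higher, where 14.1% of all tested genes were lower and 11.0% higher. Nek2 had 9 to 15 counts in a KO-labelled and 39 to 52 in a WT library there, and the proliferation markers had a median of -1.96 between the genotypes at this stage. Ptbp1 did not pass the test in differentiated myotubes (log2 fold change -0.05 ± 0.06 SE, adjusted p 0.607 by edgeR). In fused myotubes Ptbp1 (-0.26) and Srsf3 (-0.14) were lower, where 6.72% of all tested genes were.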

How the data were processed

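RNA was measured in 19 libraries made, per the labels' protocols, with an Illumina TruSeq mRNA kit. For each of 121843 transcripts the authors deposited an estimated count, a TPM value, a length and an effective length, per the file headers. The submitters' processing notes name bcl2fastq 2.20, fastp 0.20.0, kallisto 0.46.1, edgeR 3.36 and build GRCm38.p6, without the parameters used. In this layout a read that matches several transcripts is shared between them, so near-identical genes can exchange counts.

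Transcripts were assigned to 35598 genes with GENCODE M21. Another 825 transcripts matched no gene and were dropped, with 0.255% to 0.507% of a library's counts. A second Aldoa gene identifier with 146.0 counts was left out as well. Estimated counts were summed per gene and rounded. All 19 libraries entered 1 edgeR 4.0.16 fit (R 4.3.3) with 6 groups, filterByExpr and TMM scaling, and 12 comparisons were adjusted over 15123 genes. The biological coefficient of variation was 4.03%. Isoform shares came from the deposited TPM values summed per gene, and the Pkm share from estimated counts. Replicate pairs differed by more than counting noise (chi-square per degree of freedom 2.14 to 7.68). Counts and limits for low genes cover counting error only, since PCR copies are not independent molecules.

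The 40 genes, the other lists and the tests were chosen with earlier results of these data known. Given library by library were the isoform families, single-gene steps and up to 8 called genes per genotype comparison. Of the other lists, the 3 called genes that changed most were named, with Ptbp1 and Txnip, and 1 result on a regulator is not reported here. Alternatives were other scalings, filters, DESeq2 1.42.0, an effective length offset, a replicate block, fits of the compared groups only and leaving out each library.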

Additional observations from a re-analysis of the deposited data

Results flagged for a closer look

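Of 98 groups of 4 libraries tested for a value far from the other 3, 6 gave one, where chance flags about 1 in 20. In WT fused myotubes these were Pfkm in replicate 4, the lowest at 1318 CPM, Pfkfb1 in replicate 1, the highest at 0.320 CPM, Pygb in replicate 3, the highest at 18.0 CPM, and the Eno3 share in replicate 4, the lowest at 78.9%. In KO-labelled fused myotubes they were Pgk1 in replicate 4, the lowest at 836 CPM, and the Ldha share in replicate 4, the lowest at 87.2%.

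The effect of the genotype label (KO-labelled over WT, log2) differed between stages in 37 tests of 21 genes, by edgeR's test of the difference itself. From myoblasts to differentiated myotubes it moved up in Hk2 (0.28), Pfkm (0.54), Aldoa (0.30), Tpi1 (0.22), Pgam2 (1.03), Pygm (0.92), Phka1 (0.40), Ugp2 (0.31), Ppp1r3a (1.14) and Slc16a3 (1.23), and down in Pfkfb3 (-0.52) and Pygb (-0.77). From differentiated to fused myotubes it moved up in Pfkp (0.39), Pgam1 (0.17) and Pygb (0.72), and down in Hk2 (-0.25), Pfkm (-0.27), Pfkl (-0.37), Aldoa (-0.25), Pgam2 (-0.43), Eno3 (-0.20), Ldha (-0.20), Ldhb (-0.24), Pygm (-0.35), Phka1 (-0.22), Ugp2 (-0.18) and Ppp1r3a (-0.28). From myoblasts to fused myotubes it moved up in Hk1 (0.23), Pfkm (0.27), Pfkp (0.36), Pgam2 (0.60), Pygm (0.57), Ppp1r3a (0.85) and Slc16a3 (0.99), and down in Pgk1 (-0.18), Eno3 (-0.21) and Pgm2 (-0.74). Of the skeletal muscle markers, all 8 were called in the first of these tests, 7 up and 1 down, 3 in the second, 1 up and 2 down, and 6 in the third, all up, and their part in these differences was not tested.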

How the results depend on the processing

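No called difference between genotypes and no called difference of the genotype effect changed direction under the alternatives run. Between WT stages, 7 log2 fold changes changed sign when scaled by library size only, to -0.25 for Hk2, -0.16 for Gbe1 and -0.14 for Slc16a1 from myoblasts to differentiated myotubes, and to -0.086 for Hk1, -0.16 for Pgk1, -0.15 for Pkm and -0.11 for Slc16a1 from myoblasts to fused myotubes. With the effective length offset, Pfkp from differentiated to fused myotubes became 0.10 and Eno1 from myoblasts to fused myotubes 0.64. An offset for effective length called fewer of the 40 genes between genotypes, 5 in myoblasts, 8 in differentiated and 4 in fused myotubes in place of 8, 13 and 8. It gave 6 and 5 differences of the genotype effect from differentiated to fused and from myoblasts to fused myotubes, in place of 15 and 10, and library size alone gave 9 for the first. Over all genes the offset called 586, 2143 and 821 between genotypes in place of 1747, 3810 and 1972, and 1457, 978 and 665 differences in place of 2890, 2238 and 1557. A fit of the compared groups only called 2625 genes in myoblasts, and the cause of these shifts was not tested. DESeq2 size factors gave 485 higher and 1173 lower genes in KO-labelled myoblasts in place of 735 and 1012. The rise of the Pkm M1 share from WT myoblasts to fused myotubes was 46.2 points by TPM and 44.2 by counts.

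Leaving out each library gave 5 to 8, 5 to 13 and 5 to 8 called genes between genotypes at the 3 stages. It gave 31 to 36, 33 to 38 and 36 to 38 for the stage comparisons in WT and 32 to 34, 33 to 36 and 35 to 38 in KO-labelled cells. The differences of the genotype effect ranged from 8 to 15, 8 to 16 and 6 to 11. With the replicate block the counts were 7, 12 and 8 between genotypes, 35, 36 and 37 in WT, 34, 36 and 37 in KO-labelled cells, and 11, 16 and 11 for the differences. Deviations of same-numbered WT and KO-labelled libraries of a stage correlated at -0.061 to 0.021. The labels do not say whether the numbers pair samples. These correlations cannot settle it, since the groups are small and numbers were not compared across stages. Limits are the 2 KO-labelled differentiated libraries, the 8 to 31 counts of Slc16a3 and Ppp1r3a in a myoblast library, and the use of strand, which is not given.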
